A study of Mus musculus with 10 samples.

Results

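Open chromatin around 7 genes of bone morphogenetic protein (BMP) signalling, Bmp4, Bmpr1a, Smad6, Id1, Id2, Id3 and Id4, was followed along the reprogramming of mouse fibroblasts to pluripotency. The genes were taken as a set by name, and every ATAC-seq peak from 30 kb before to 30 kb after each gene (mm10 coordinates) was taken. Overlapping peaks of all libraries were joined into elements, which gave 112 elements at the 7 genes, of 208851 in the genome. The 7 genes are among 21883 protein-coding genes of the gene table. ATAC-seq uses a transposase that inserts sequencing adapters into accessible DNA, and a peak marks a stretch with more insertions than its surroundings.

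The study has 10 libraries, 2 at each of 5 stages, all labelled as C57BL/6 x 129. The 8 libraries of the reprogramming series came from cells with the genotype OKSM Col1a1/M2rtTA ROSA26, in which doxycycline switches on Oct4, Klf4, Sox2 and Myc from the Col1a1 locus. Mouse embryonic fibroblasts (MEF) were collected unsorted from fibroblast medium without doxycycline. DAY3 cells were unsorted, and DAY6 and DAY9 cells were sorted and are labelled SSEA+. All 3 of these stages were in embryonic stem cell medium with 1 µg/ml doxycycline and 50 µg/ml ascorbic acid, for 3, 6 or 9 days. The pluripotent reference (ESC) was the established embryonic stem cell line V6.5, unsorted and grown with LIF on irradiated feeder cells. MEF and ESC were both unsorted but differ in genotype, medium and feeder cells, which cannot be told apart from stage in that comparison. Medium and doxycycline change together between MEF and DAY3, and sorting changes between DAY3 and DAY6. In bulk cells, an element open in fewer cells and an element less open in each cell cannot be told apart either.

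BMP ligands bind a complex of type I and type II receptors, which phosphorylates the transcription factors SMAD1, SMAD5 and SMAD9. With SMAD4 these enter the nucleus and switch on target genes, among which the Id genes are the best known. ID proteins have a helix-loop-helix domain but no basic DNA-binding region, and they hold back the basic helix-loop-helix factors that drive differentiation. In mouse embryonic stem cells BMP4 acts with LIF to sustain self-renewal, in part through Id genes. In fibroblast reprogramming BMP signalling has been linked to the early mesenchymal-to-epithelial transition. SMAD6 is an inhibitory SMAD, itself induced by BMP, that limits receptor signalling.

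Promoter sequence was matched by symbol for 6 of the 7 genes (RefSeq, GRCm38.p6). The 250 bases before the start are shown for Bmp4, the only one of the 6 without a peak over its start in most libraries, and for Id2, Id3 and Id4, whose start had a peak in all 10 libraries. Each is written 5′ to 3′ on the gene's own strand. Capitals mark GGCGCC, a GC-rich motif bound by BMP SMADs, and CACCC and GGGTGTG, motifs of KLF factors, on either strand. GGGTGTG overlaps the reverse complement of CACCC.

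Bmp4, chr14:46390670-46390919, minus strand: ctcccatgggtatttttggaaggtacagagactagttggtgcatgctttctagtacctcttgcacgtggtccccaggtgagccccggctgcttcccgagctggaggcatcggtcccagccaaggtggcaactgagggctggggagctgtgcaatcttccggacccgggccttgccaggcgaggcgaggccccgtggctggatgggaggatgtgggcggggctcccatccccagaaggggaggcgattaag
Id2, chr12:25096093-25096342, minus strand: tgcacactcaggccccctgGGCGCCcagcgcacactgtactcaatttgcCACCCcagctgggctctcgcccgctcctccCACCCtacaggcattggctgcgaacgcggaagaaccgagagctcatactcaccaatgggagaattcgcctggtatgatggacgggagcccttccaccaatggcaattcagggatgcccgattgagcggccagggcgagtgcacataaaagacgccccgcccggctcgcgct
Id3, chr4:136143572-136143821, plus strand: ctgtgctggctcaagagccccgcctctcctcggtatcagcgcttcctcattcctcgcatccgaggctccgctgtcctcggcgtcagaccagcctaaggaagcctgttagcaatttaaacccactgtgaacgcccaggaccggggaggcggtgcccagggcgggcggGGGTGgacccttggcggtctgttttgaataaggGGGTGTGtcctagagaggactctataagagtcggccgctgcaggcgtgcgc
Id4, chr13:48260866-48261115, plus strand: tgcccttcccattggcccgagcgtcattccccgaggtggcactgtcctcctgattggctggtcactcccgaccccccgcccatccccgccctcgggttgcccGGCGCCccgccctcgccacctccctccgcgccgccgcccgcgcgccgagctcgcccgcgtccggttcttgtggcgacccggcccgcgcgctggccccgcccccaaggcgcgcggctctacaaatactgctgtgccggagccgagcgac

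The Bmp4 stretch held 11 CpG dinucleotides, Id2 and Id3 held 18 each, Smad6 27, Id4 35 and Bmpr1a 36. The median over 21262 promoters of protein-coding genes was 10, and 55.1% held at most 11. GGCGCC was present in Id2, Id4 and Bmpr1a, with 1 match each, and in 12.3% of all promoters of this length. CACCC was present in Id2 and Id3 with 2 matches each and in Smad6 and Bmpr1a with 1 each, and in 54.2% of all promoters. GGGTGTG was present in Id3 alone of the 6, and in 7.08% of all promoters. The SMAD box GTCT occurred in Bmp4, Id2, Id3 and Smad6 and in 81.6% of all promoters. None of the 6 held the AP-1 motifs TGAGTCA or TGACTCA (4.06% of all promoters), the 7 bases ATGCAAA of the octamer (3.86%) or the SOX motif CATTGT (9.35%). A match is a string of letters in this window, not evidence that a factor bound there.

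The lists held 45497 (DAY3 replicate 2) to 88980 (ESC replicate 2) peaks. Read totals were not analysed here. The background pileup recovered from the deposited values, a measure of relative depth, lay between 2.33 (DAY6 replicate 2) and 8.32 (MEF replicate 2). Both DAY3 libraries, and likewise both DAY9 libraries, were nearly as alike as counting error allows (noise ratio 1.33 and 1.42, where 1 is chance alone, against 3.61 to 8.11 for the replicates of the other stages). Each of these pairs was therefore counted as 1 sample. Nothing in the labels says that the replicates came from separate cultures or animals. Of 10 markers of pluripotent cells, a peak within 1 kb of a gene end was present for 2 in both MEF libraries. The count was 3 at DAY3, 7 at DAY6, 9 at DAY9 and 9 for ESC. Of 10 fibroblast markers these counts were 8, 5, 5, 5 and 6. Among the fibroblast markers, Col3a1, Thy1 and Postn had peaks in both libraries for MEF alone, and Col1a1, Col1a2 and Twist1 at every stage. Twist2 had them for MEF and DAY3, and Pdgfrb for MEF, DAY6 and ESC. Zeb1 had peaks in both libraries at every stage but MEF, and Prrx1 for DAY9 and ESC alone. MEF replicate 1 had a peak for all 10 and MEF replicate 2 for 8, so Zeb1 and Prrx1 lacked one in MEF replicate 2 only. Of 6 epithelial markers they were 0, 2, 5, 5 and 5. Of 3 blood markers they were 1, 2, 1, 2 and 2, and of 3 endothelial markers 0, 1, 1, 1 and 1. Feeder cells accompanied the ESC libraries, and their part in the peaks described here was not tested.

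**Figure D1:**
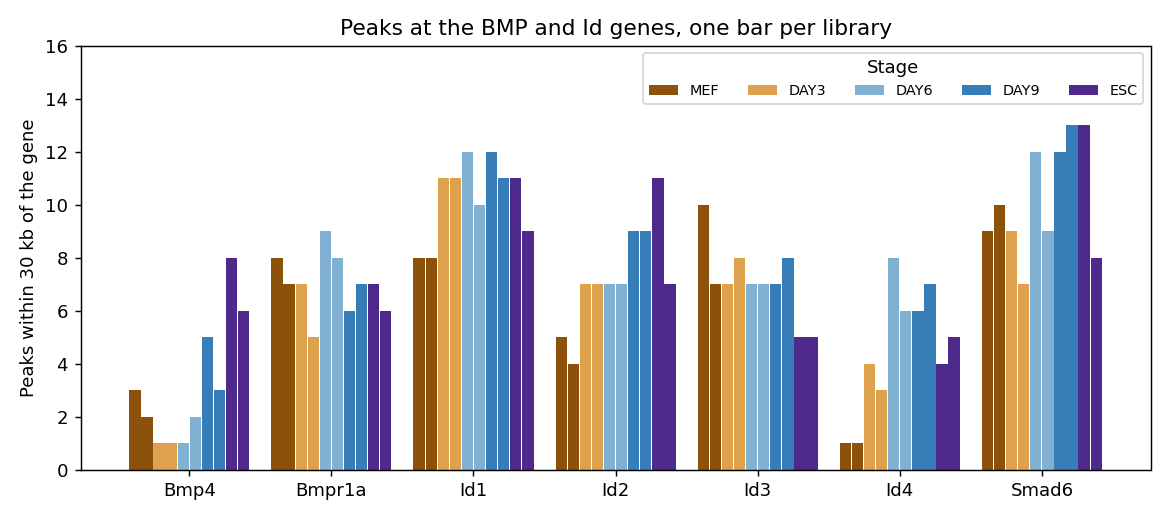
Number of peaks (y axis) within 30 kb of each gene (x axis), with 1 bar for each of the 10 libraries, coloured by stage and in the order of replicate 1 and 2. Id4 had 1 peak in each MEF library and 3 to 8 in all later ones, and Id3 was lowest in ESC, with 5 in each library.

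The number of peaks at the 7 genes together was 44 and 39 for MEF, 46 and 42 for DAY3, 56 and 49 for DAY6, 57 and 58 for DAY9, and 59 and 46 for ESC. The lists differ in length, and as a share of the list these peaks ran differently, at 0.0591% and 0.0607% for MEF, 0.101% and 0.0923% for DAY3, 0.086% and 0.0831% for DAY6, 0.0733% and 0.0741% for DAY9, and 0.0681% and 0.0517% for ESC. The median number of peaks per gene window over all genes was 3 in each DAY3 library, 4 in each of MEF and DAY6, and 5 in each of DAY9 and ESC. Id4 had 1 and 1 peaks in MEF, 4 and 3 for DAY3, 8 and 6 for DAY6, 6 and 7 for DAY9, and 4 and 5 for ESC. The MEF libraries were thus below every other library at Id4. Bmp4 had 3 and 2 peaks in MEF, 1 and 1 for DAY3, 1 and 2 for DAY6, 5 and 3 for DAY9, and 8 and 6 for ESC, so that the ESC libraries lay above all others. Id2 had 5 and 4 for MEF, 7 in each library of DAY3 and DAY6, 9 in each of DAY9, and 11 and 7 for ESC. Id3 had 10 and 7 for MEF, 7 and 8 for DAY3, 7 in each library of DAY6, 7 and 8 for DAY9, and 5 in each of ESC. Id1 had 8 in each MEF library and 9 to 12 in the others. Bmpr1a, with 5 to 9 peaks, and Smad6, with 7 to 13, had overlapping stages, and their windows are wider because the genes are 92276 and 69010 bp long.

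Stage was tested over all genes by exact permutation, taking as statistic the between-stage percentage of the sum of squares, over 420 arrangements of 8 samples. It was run for the 21008 genes whose peak number varied. At a Benjamini-Hochberg adjusted p under 0.05 it called no gene at all (0 of 21008, 0%), the members included, and 2765 genes (13.2%) had an unadjusted p under 0.05. Of the 7 genes only Id4 did (94.4% between stages, exact permutation p = 0.0286, adjusted p = 0.332). This p is for all 5 stages together and not for ESC against MEF. The Id4 means were 1 ± 0 for MEF, 7 ± 1.41 for DAY6 and 4.5 ± 0.707 for ESC (SD, n = 2 each). They were 3.5 for DAY3 and 6.5 for DAY9 (n = 1 each). Bmp4 had 93.2% between stages (exact permutation p = 0.069, adjusted p = 0.358). The median share was 76.8% over the 7 genes and 79.2% over all genes tested. The smallest p this design allows is 0.00238. The share of Id4 was 92% without either MEF library, 95.5% without ESC replicate 1 and 95.4% without ESC replicate 2. Such fits have 1 sample in that stage, which then adds no spread within stages, and 105 arrangements in place of 420. These shares therefore do not show whether the Id4 result is stable. With 420 arrangements, its unadjusted exact permutation p was 0.0143 with lists of equal length and 0.031 for base pairs covered. It was 0.0786 with a score of at least 133, 0.129 within 10 kb and 0.05 within 50 kb. With all 10 libraries counted separately, Bmp4, Id2 and Id4 had unadjusted exact permutation p of 0.0127, 0.0476 and 0.0116. Their exact permutation p after adjustment were 0.115, 0.147 and 0.115, so again none passed. This fit treats the nearly identical DAY3 and DAY9 pairs as separate samples. The share of all genes under the same unadjusted threshold is not given for this fit, so the 3 genes are not shown to stand out.

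Gained elements are those with a peak in both ESC libraries and neither MEF library, and lost elements are the converse. With 2 libraries against 2 the smallest two-sided exact p is 0.333, so these calls carry no p-value. At the 7 genes 17 of 112 elements (15.2%) were gained, against 15.9% of all elements in the genome. Lost elements numbered 11 (9.82%), against 11.1% in the genome. Both shares are near the background. With all lists cut to 45497 peaks, the gained share was 8.64% (7 of 81) against 12.9% in the genome, and the lost share 9.88% (8 of 81) against 12.9%. With a score of at least 133 these were 9.68% (6 of 62) against 16.3%, and 11.3% (7 of 62) against 10%. Shared elements, open in every MEF and ESC library, numbered 16 (14.3%, genome 9.2%). Transient elements, closed in MEF and ESC but open in both libraries of an intermediate stage, numbered 10 (8.93%, genome 9.61%). The other 58 (51.8%, genome 54.1%) were mixed, and 34 of the 112 (30.4%, genome 37.9%) had a peak in 1 library only. Without ESC replicate 2 the gained elements numbered 31 (27.7%, genome 26.3%), and without MEF replicate 2 the lost elements numbered 18 (16.1%, genome 20.1%).

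**Figure D2:**
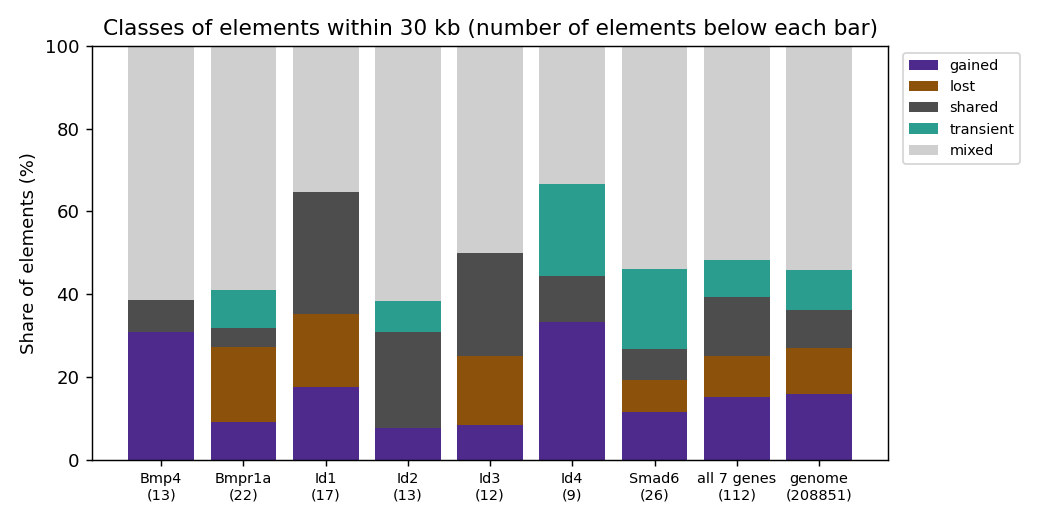
Share of elements in each class (y axis, %) for each gene, for the 7 genes together and for all elements of the genome (x axis, number of elements in parentheses). Bmp4, Id2 and Id4 had no lost element among 13, 13 and 9. The gained and lost shares of the 7 genes together (15.2% and 9.82%) lie near those of the genome (15.9% and 11.1%).

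Per gene the counts of switching elements were small. Bmp4, with 4 gained and 0 lost of 13 elements, Id4, with 3 and 0 of 9, and Id2, with 1 and 0 of 13, had no lost element. With 11.1% of elements lost in the genome, windows of this size can hold none. Whether the genes differ in class was not tested. Bmpr1a had 2 gained and 4 lost, Id3 1 and 2, Id1 3 and 3, and Smad6 3 and 2. Of the 17 gained elements, 4 were open in both libraries from DAY3, and DAY6 added 4, DAY9 5 and ESC 4. Thus 13 of 17 (76.5%) were open in both libraries of a stage before ESC, against 39.1% of all gained elements in the genome. Of the 11 lost elements, 6 (54.5%) had no peak in either DAY3 library, against 79.4% in the genome, and 1 was first absent at DAY6, 1 at DAY9 and 3 in ESC. With lists of equal length, 25% of the 8 lost elements had no DAY3 peak, against 67.9% in the genome. These shares rest on 17 and 11 elements of 7 loci and are descriptions. Shared elements lay close to the gene starts, with a median distance of 2.36 kb. This distance was 12.4 kb for gained, 29.5 kb for lost and 33.0 kb for transient elements. Within 3 kb of the start lay 12 of the 16 shared and 3 of the 17 gained elements, and none of the lost or transient ones. These distances were not computed over the genome, so they are not shown to be particular to the 7 genes. The windows of the long genes Bmpr1a and Smad6 also reach farther from the start than the others.

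**Figure D3:**
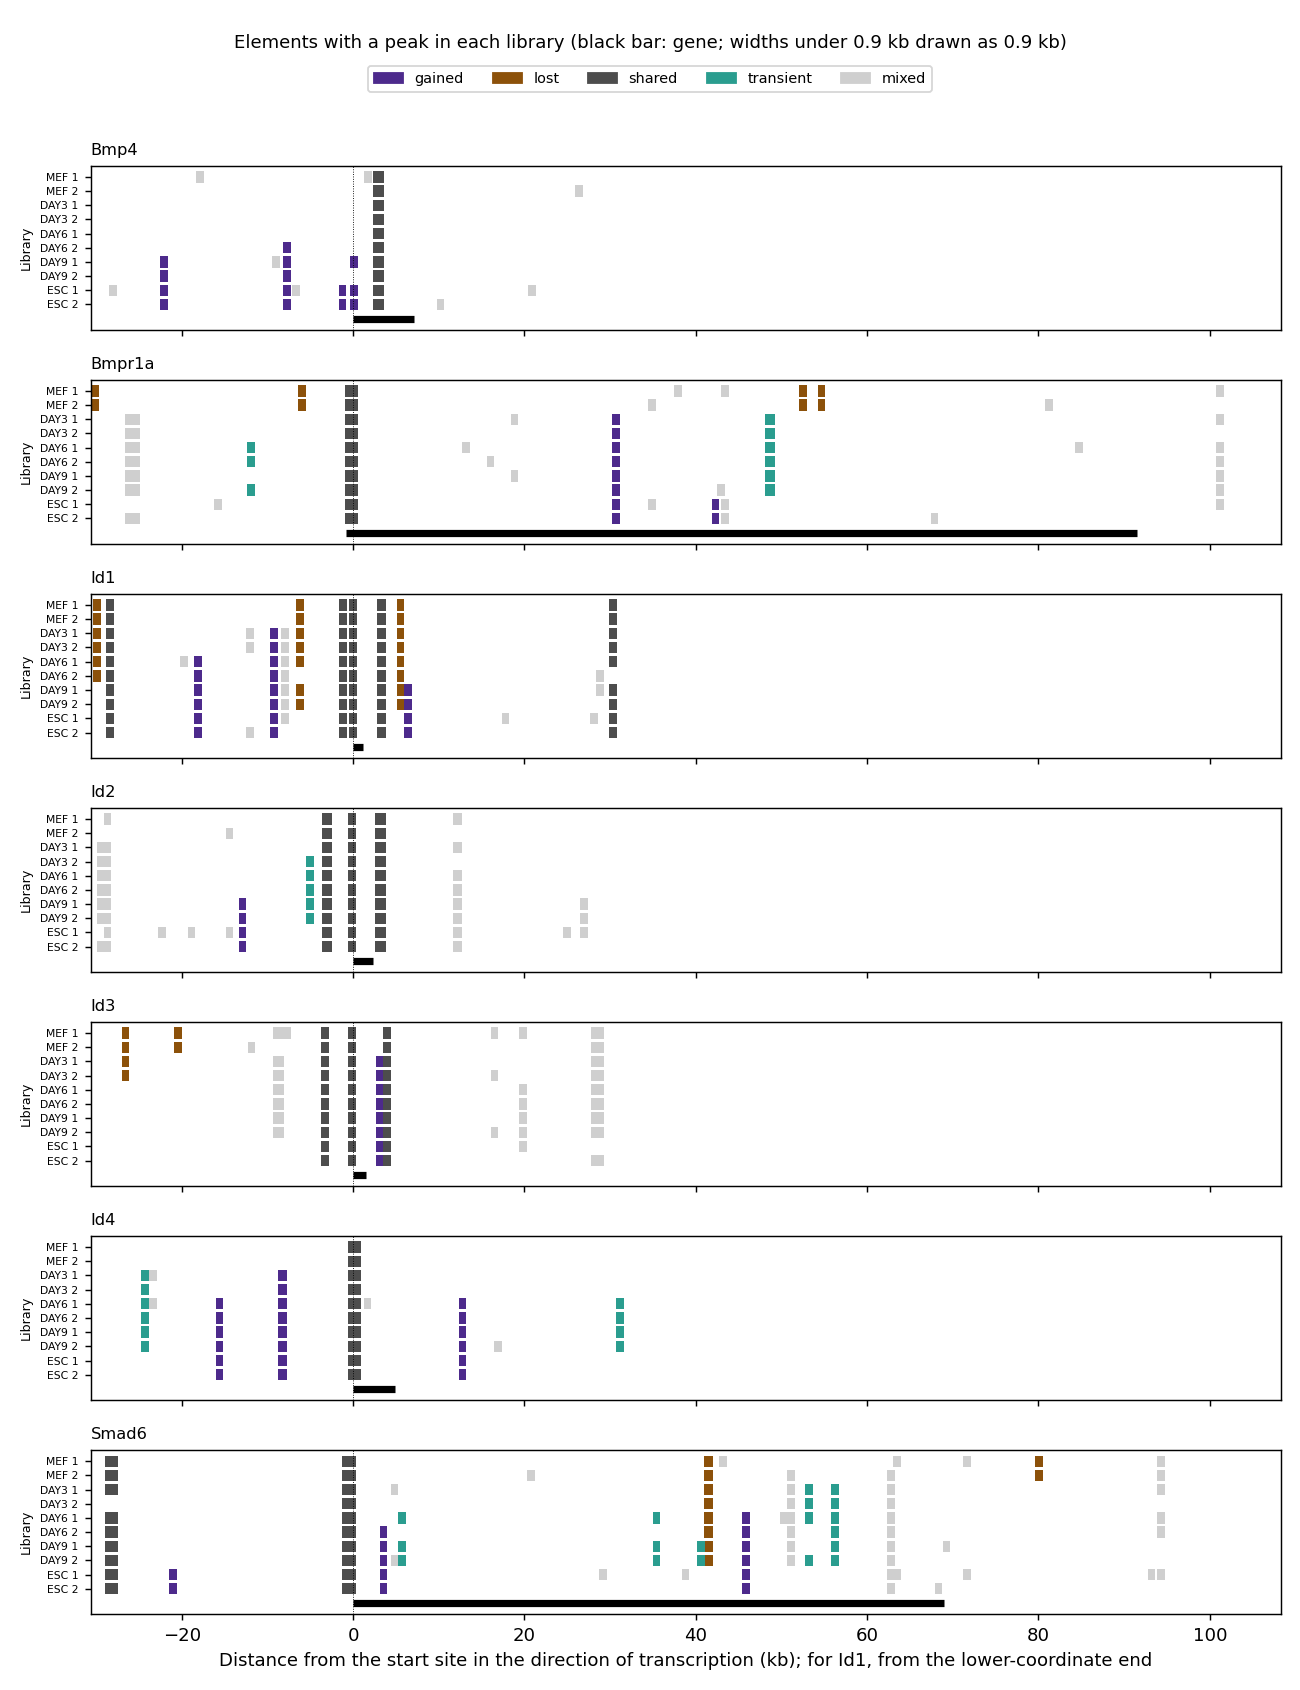
Map of the elements at each gene (panels), with distance from the start site in kb on the x axis and the 10 libraries on the y axis. A box shows that the library had a peak in the element, its colour gives the class, and the black bar is the gene. The start used (for Id1 the lower-coordinate end) had a peak in all 10 libraries at every gene but Bmp4. The gained, lost and transient boxes lie mostly at a distance.

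Fold is the authors' linear enrichment of the peak summit over its local background, and the place of a peak in its own list is by −log10 p. The lists differ in depth, so folds of different stages are set side by side and carry no test. Whether an element inside a gene is exonic or intronic was not analysed here.

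Bmp4, which encodes the ligand, lies on chromosome 14 from 46383525 to 46390669 on the minus strand, with no other protein-coding gene in its window. Its start had an element at 46390251 to 46390920 that was gained. The fold there was 2.60 and 3.36 for ESC and 3.61 for DAY9 replicate 1, and the other 7 libraries had no peak. These were weak peaks, since the ESC replicate 1 peak stood at 99% of its list, counted from the strongest. A second gained element, at 46391686 to 46392098, lay 1.02 kb before the start and had peaks in ESC alone, with folds of 3.23 and 3.99. Farther out, the element 7.26 kb before the start, at 46397934 to 46398886, had a fold of 3.61 for DAY6 replicate 2, 4.08 and 3.46 for DAY9, and 3.57 and 4.65 for ESC. The element 21.8 kb before the start, at 46412439 to 46413049, had 3.48 and 2.63 for DAY9 and 8.89 and 4.65 for ESC. Of these 4 gained elements, the last kept its call when all lists were cut to the same length, and none kept it with a score of at least 133. One element inside the gene, at 46387004 to 46388376 and 2.29 kb after the start, was open in all 10 libraries. It overlaps the long non-coding RNA gene Gm15222, and its fold was 4.68 and 4.76 for MEF, 8.08 and 6.38 for DAY3, 6.37 and 8.56 for DAY6, 7.80 and 7.46 for DAY9, and 6.20 and 5.30 for ESC.

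Bmpr1a encodes the type I receptor ALK3 and lies on chromosome 14 from 34411061 to 34503336, minus strand. Its start, at 34501913 to 34503479, was open in all 10 libraries. The fold was 8.67 and 7.07 for MEF, 8.47 and 7.28 for DAY3, 8.21 and 10.5 for DAY6, 13.4 and 13.8 for DAY9, and 9.08 and 8.06 for ESC. The DAY9 peaks stood in the top 4.0% and 3.6% of their lists and the others between 10% and 20%. Away from the start the locus had both lost and gained elements. The lost element with the highest score, at 34508037 to 34508961 and 5.49 kb before the start, had folds of 9.15 and 7.77 for MEF and no peak in any later library. Of the other 3 lost elements, those at 34447661 to 34448068 and at 34449754 to 34450378 lay inside the gene, and that at 34532412 to 34532973 overlapped the neighbouring gene Ldb3. They had folds of 3.40 to 4.28 for MEF and none later. None of these 3 kept its call with lists of equal length or with a score of at least 133. The other switching elements of Bmpr1a kept theirs in both. ESC alone had the element at 34459920 to 34460552, inside the gene, with folds of 11.5 and 10.5. The gained element at 34471538 to 34472231, 30.3 kb after the start, was present from DAY3 on. Its fold was 3.01 and 3.99 for DAY3, 4.94 and 5.11 for DAY6, 8.29 and 7.52 for DAY9, and 6.02 and 5.42 for ESC.

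Between these end states Bmpr1a had a transient element at 34453331 to 34454446, 48.1 kb after the start. Its fold was 8.36 and 7.93 for DAY3, 11.1 and 8.25 for DAY6, and 5.64 and 4.06 for DAY9, with no peak in MEF or ESC. A second transient element, at 34514153 to 34514678 in the neighbouring gene 9230112D13Rik, had 4.49 and 4.21 for DAY6 and 3.46 for DAY9 replicate 2. An element 24.9 kb before the start, at 34527453 to 34529107 and over Ldb3, had a similar time course but a weak ESC peak. Its fold was 7.57 and 8.16 for DAY3, 11.4 and 10.7 for DAY6, 9.72 and 10.4 for DAY9, and 2.94 for ESC replicate 2. It was chosen for mention after its values were seen.

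**Figure D4:**
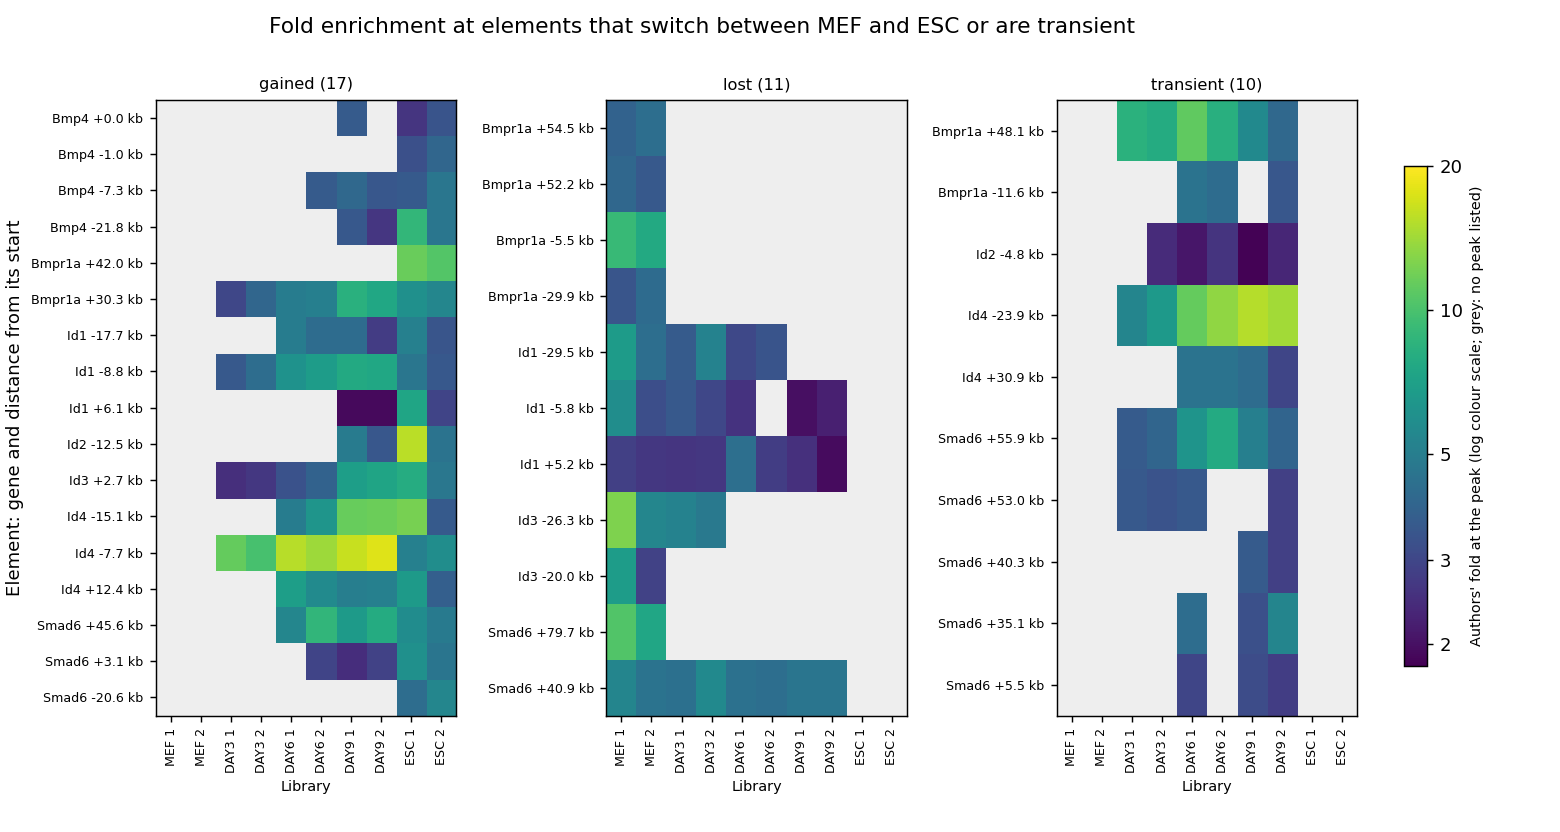
Authors' fold (colour, log scale) at the 17 gained, 11 lost and 10 transient elements (rows, named by gene and distance from its start in kb) in each of the 10 libraries (columns). Grey marks a library without a peak. The rows of Bmpr1a, Id4 and Smad6 hold the transient elements that were open in all 6 intermediate libraries.

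Smad6, the inhibitory SMAD, lies on chromosome 9 from 63953076 to 64022085, minus strand. Its start, at 64021741 to 64023394, was open in all 10 libraries, with folds of 6.89 and 4.47 for MEF, 6.56 and 6.54 for DAY3, 7.15 and 5.99 for DAY6, 6.79 and 7.55 for DAY9, and 5.80 and 5.49 for ESC. These ranges overlap between stages. The other shared element, at 64049487 to 64050978 and over the gene 1110036E04Rik, had folds of 3.33 to 9.39 and no peak in DAY3 replicate 2. A gained element 3.13 kb after the start, at 64018101 to 64018930, had a fold of 2.95 for DAY6 replicate 2, 2.46 and 2.90 for DAY9, and 6.02 and 4.57 for ESC. The gained element at 63975863 to 63976495, deeper in the gene, had 5.46 and 8.78 for DAY6, 6.66 and 7.94 for DAY9, and 5.78 and 4.80 for ESC. ESC alone had the element at 64042626 to 64043481, 20.6 kb before the start, with 4.24 and 5.42. This element became mixed with lists of equal length and with a score of at least 133. The other gained elements of Smad6 kept their call in both.

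Lost at Smad6 were 2 elements that left at opposite ends of the time course. The element at 63941648 to 63942323, beyond the 3′ end of the gene and over the non-coding gene Gm36033, had folds of 10.4 and 7.51 for MEF and no later peak. The element at 63980081 to 63981123, inside the gene, had 5.41 and 4.51 for MEF, 4.38 and 5.64 for DAY3, 4.41 and 4.29 for DAY6, 4.57 and 4.58 for DAY9, and no peak in ESC. Smad6 also held 5 of the 10 transient elements, all inside the gene. The one at 63965554 to 63966116 was open in all 6 intermediate libraries, with 3.59 and 3.95, 6.27 and 7.88, and 5.07 and 3.90 in that order. The other 4, starting at 63968500, 63981191, 63986330 and 64016138, had 2 to 4 peaks each, with folds of 2.79 to 5.37.

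Id4 lies on chromosome 13 from 48261116 to 48266028, plus strand. ID4 is the family member best known from neural precursors. Its start, at 48260567 to 48262070, was open in all 10 libraries and ranked in the top 1.6% to 17% of the lists. The fold was 10.9 and 8.96 for MEF, 10.2 and 8.50 for DAY3, 10.3 and 10.7 for DAY6, 14.8 and 15.1 for DAY9, and 12.6 and 8.31 for ESC. In MEF this was the only element of the locus with a peak. At DAY3 a gained element appeared 7.74 kb before the start, at 48252350 to 48253374, over the gene A330033J07Rik, which also overlaps the start of Id4. Its fold was 11.3 and 9.92 for DAY3, 15.5 and 14.0 for DAY6, 16.4 and 17.7 for DAY9, and 5.13 and 5.88 for ESC. Its ESC peaks stood at 54% and 35% of their lists, and those of DAY3, DAY6 and DAY9 in the top 4.4% to 10%.

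Id4 gained 2 further elements at DAY6. The one 15.1 kb before the start, at 48245107 to 48245978, had folds of 4.94 and 6.31 for DAY6, 11.4 and 11.6 for DAY9, and 12.2 and 3.56 for ESC. The ESC libraries thus differed from each other by more than the DAY9 libraries did. The one 12.4 kb after the start, at 48273516 to 48274302, had 6.96 and 5.71 for DAY6, 5.04 and 5.14 for DAY9, and 6.69 and 3.72 for ESC. A transient element 23.9 kb before the start, at 48236406 to 48237247, had 5.39 and 6.54 for DAY3, 11.3 and 13.4 for DAY6, 15.3 and 14.3 for DAY9, and no peak in MEF or ESC. A second, 30.9 kb after the start at 48292062 to 48292553, had 4.49 and 4.51 for DAY6 and 4.20 and 2.99 for DAY9. When all lists were cut to 45497 peaks, none of the 3 gained elements of Id4 kept its call, and all became mixed, as they did with a score of at least 133. With at least 50% of the element required under peaks, the one 7.74 kb before the start was called transient.

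Id1, the prototype BMP target, lies on chromosome 2 from 152736251 to 152737410. Its strand was not used here, and distances run from its lower-coordinate end, along the chromosome. The element over that end, at 152735873 to 152736689, was open in all 10 libraries, with folds of 5.95 and 4.51 for MEF, 4.32 and 5.07 for DAY3, 3.98 and 5.33 for DAY6, 5.10 and 5.08 for DAY9, and 2.82 and 4.48 for ESC. The stages overlap. Open in every library too was the element at 152734723 to 152735496, 0.755 kb below, with folds of 3.82 to 8.06, and the one at 152739044 to 152740045, 2.79 kb above. The latter had 2.23 and 2.57 for MEF, 4.35 and 4.90 for DAY3, 4.98 and 5.97 for DAY6, 6.34 and 5.70 for DAY9, and 2.59 and 2.59 for ESC. All 6 intermediate values lay above all 4 of MEF and ESC. The element with the highest score in the window, at 152707405 to 152708297, overlaps the neighbouring gene H13, and its fold was 4.65 to 13.7. The fifth shared element, at 152766196 to 152766981 and over Bcl2l1, had 12.4 and 6.54 for MEF and 3.30 to 5.56 in the later libraries but DAY6 replicate 2, which had none.

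Id1 gained 3 elements. The one at 152726571 to 152727444, 8.81 kb below, had folds of 3.52 and 4.26 for DAY3, 6.13 and 6.84 for DAY6, 7.79 and 7.53 for DAY9, and 4.64 and 3.49 for ESC. The one at 152717873 to 152718522 had peaks in both libraries of DAY6, DAY9 and ESC, with folds of 2.75 to 5.13. The one at 152742393 to 152742875 had 1.91 and 1.91 for DAY9 and 7.43 and 2.94 for ESC. Lost elements numbered 3 as well. The one at 152741402 to 152742164, next to the last gained one, had peaks in all 8 MEF, DAY3, DAY6 and DAY9 libraries, with folds of 1.93 to 4.32. The one at 152729538 to 152730489 had 5.86 and 3.22 for MEF, 3.54 and 3.00 for DAY3, 2.57 for DAY6 replicate 1, and 1.98 and 2.23 for DAY9. The one at 152705942 to 152706721, over H13, had 6.73 and 4.29 for MEF, 3.58 and 5.25 for DAY3, 3.04 and 3.35 for DAY6, and no later peak. None of the 3 gained elements of Id1 kept its call with lists of equal length or with a score of at least 133, whereas this last lost element kept it in both. The lost element at 152741402 became transient with lists of equal length and mixed with the score threshold, where the one at 152729538 became mixed too.

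Id2 lies on chromosome 12 from 25093799 to 25096092, minus strand, with no other protein-coding gene in its window. Its start, at 25095855 to 25096603, was open in all 10 libraries with folds of 5.70 and 5.50 for MEF, 6.50 and 6.78 for DAY3, 4.97 and 7.12 for DAY6, 6.27 and 6.57 for DAY9, and 8.31 and 6.07 for ESC. The elements on either side, at 25092188 to 25093506 and at 25098526 to 25099690, were also open in every library, with folds of 2.63 to 4.84 and 4.33 to 6.07. The single gained element, at 25108628 to 25109333 and 12.5 kb before the start, had 4.92 and 3.46 for DAY9 and 15.6 and 4.49 for ESC. It became mixed with lists of equal length and with a score of at least 133, which left Id2 without a gained element. A transient element at 25100865 to 25101341 had folds of 1.82 to 2.59 in 5 of the 6 intermediate libraries.

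The element with the highest score at Id2 was mixed, since 1 MEF library had a weak peak there. It lay 28.2 kb before the start, at 25124311 to 25125203. Its fold was 3.40 for MEF replicate 1, 10.3 and 11.9 for DAY3, 13.5 and 12.8 for DAY6, 15.6 and 16 for DAY9, and 7.81 and 11.4 for ESC. It had no peak in MEF replicate 2. The MEF peak stood at 93% of its list, and the DAY3, DAY6 and DAY9 peaks in the top 1.9% to 7.2% of theirs.

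Id3 lies on chromosome 4 from 136143822 to 136145392, plus strand. Its start, at 136143294 to 136144152, was open in all 10 libraries, with folds of 5.89 and 5.33 for MEF, 3.95 and 4.23 for DAY3, 4.23 and 4.93 for DAY6, 5.05 and 4.30 for DAY9, and 6.77 and 4.07 for ESC. The elements at 136140231 to 136140887, over the non-coding gene Gm42329, and at 136147439 to 136148202 were open in every library too, with folds of 5.19 to 7.32 and 3.41 to 6.17. The gained element, at 136146545 to 136147279 and 2.72 kb after the start, had 2.50 and 2.67 for DAY3, 3.31 and 3.85 for DAY6, 6.91 and 7.35 for DAY9, and 7.99 and 4.67 for ESC. It lies next to the last of the shared elements. When peaks up to 200 bp apart were joined it merged with that element and was no longer called gained.

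Both lost elements of Id3 lay before the gene. The one at 136117010 to 136117518, 26.3 kb before the start, had folds of 12.5 and 5.46 for MEF and 5.23 and 4.78 for DAY3, and no peak from DAY6 on. The one at 136123024 to 136123811 had 6.83 and 2.90 for MEF and none later. It became mixed with lists of equal length and with a score of at least 133, whereas the one 26.3 kb before the start kept its call in both.

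Across the 4 Id genes, the start (for Id1 the lower-coordinate end) had a peak in every library, so by rule it could not be called gained or lost. A change in its strength was not tested. All gained and lost elements lay elsewhere. Id2 and Id4 had no lost element among 13 and 9, and Id1 and Id3 had 5 between them among 17 and 12 (genome share 11.1%). Whether the Id genes differ in this was not tested. The gained elements of Id1 (8.81 kb), Id3 (2.72 kb) and Id4 (7.74 kb) that had peaks in both DAY3 libraries were joined by 1 at Bmpr1a. Bmp4 had no gained element with both libraries before DAY9, and Smad6 none before DAY6.

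Other genes of the pathway were counted by the same rules. Of 40 listed genes (7 ligands, 6 receptors, 4 coreceptors, 3 signal-transducing SMADs, 13 inhibitors and 7 targets) all 40 were found, with 677 elements, none shared with the 7 genes. Gained were 79 (11.7%, genome 15.9%) and lost 83 (12.3%, genome 11.1%). Ligands had 20 gained (16.9%) and 9 lost (7.63%) of 118 elements, receptors 14 (9.79%) and 12 (8.39%) of 143, and coreceptors 10 (17.9%) and 3 (5.36%) of 56. The signal-transducing SMADs had 3 and 3 of 50 (6% each), and the targets 9 (12.9%) and 7 (10%) of 70. The inhibitors had 23 gained (9.58%) and 49 lost (20.4%) of 240 elements. In this group 14 of the 49 lost elements lay at Bmper, a secreted BMP-binding protein. None of the 40 genes passed the adjusted threshold for peak number, and 5 (12.5%) had an unadjusted p under 0.05, against 13.2% of all genes.

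Genes whose base pairs under peaks within 30 kb followed the members most closely over the 8 samples were taken by Pearson's r, as a description. All genes are read from the same libraries at the same depth, and the part of this in the correlations was not tested. An r above 0.95 was found for 268 genes with Bmp4 and for 5 to 54 with each of the others. For Bmp4 the closest were 1700102P08Rik (0.997), Oc90 (0.994) and Mcts1 (0.991). For Bmpr1a they were Tdo2 (0.989), Manf (0.979) and Rbm15b (0.979), and for Smad6 Eif3i (0.986), Tmem234 (0.986) and Cd24a (0.972). For Id1 they were Sfmbt1 (0.982), Pim2 (0.976) and Cybrd1 (0.971), and for Id2 Slc19a1 (0.989), Scrn2 (0.985) and Zbtb34 (0.983). For Id3 they were Flna (0.976), Cdc42se2 (0.975) and Srpx (0.968), and for Id4 Maged1 (0.974), Amotl2 (0.974) and Nme5 (0.968).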

How the data were processed

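The data are the peak lists of 10 ATAC-seq libraries, 1 per library and not pooled. Per the submitters' processing notes, Bowtie2 2.3.2, deepTools 2.3.6, MACS2 2.1.1 and the build mm10 were used. The role of each tool, duplicate handling and transposase offset are not given in the sources used here. The authors' deposited columns are a score (10 times the −log10 p, rounded down), a linear fold ratio, and −log10 p- and q-values. No deposited −log10 p was under 5, and 58.2% to 75.9% of the peak numbers remained in the lists, so absence of a peak can also mean removal after calling.

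Whole summit pileups were recovered from fold and −log10 p (tolerance 0.01) where −log10 p was at most 300, to compare replicates at pileups of 100 to 200. Between stages, the noise ratios of 40 library pairs ran from 3.96 to 31.5. A library had an element if at least 1 bp of a peak lay in it. The permutation test and the calls were written in Python 3.11.15 with numpy 2.4.6 and pandas 2.3.3 and tested on simulated data. Genes with the same peak number in every sample were not tested. Gene positions and promoters are from RefSeq (GRCm38.p6, which matches mm10).

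The members and lists were chosen with earlier results of these data known. All 7 genes, all switching elements, elements at gene starts and the highest-scoring element of each gene are named, with the 3 genes most like each member. Alternatives were equal list length, a score threshold, wider joining, other windows and overlap, covered base pairs, 10 separate libraries, a replicate block and leaving out each library.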

Additional observations from a re-analysis of the deposited data

How the results depend on the processing

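The alternatives on single elements can remove or add a call but, by construction, cannot turn gained into lost. With all lists cut to 45497 peaks, 7 of 81 elements were gained (8.64%, genome 12.9%) and 8 lost (9.88%, genome 12.9%), and 12 of the 28 switching elements kept their call. With a score of at least 133, 6 of 62 were gained (9.68%, genome 16.3%) and 7 lost (11.3%, genome 10%), and 10 of 28 kept it. Those 10 were the 2 gained at Bmpr1a, its lost element 5.49 kb before the start, the lost elements 29.5 kb from Id1 and 26.3 kb from Id3, the gained element of Id3, and 2 gained and 2 lost at Smad6. Within 10 kb, 6 of 70 were lost (8.57%, genome 11.1%), since fewer elements lie in the window. Leaving out 1 MEF or ESC library gave 18 to 31 gained (genome 16.5% to 27.5%) and 12 to 18 lost elements (genome 12% to 20.1%). The share of gained elements open before ESC was 64.7% to 83.3%, against 33.1% to 50.4% in the genome, and that of lost elements without a DAY3 peak 25% to 54.5%, against 67.9% to 83.5%. Without 1 intermediate library these were 76.5% to 82.4% and 54.5%. No gene of the genome passed the adjusted threshold for peak number under any setting, so the 0 members past it say nothing about stability. For pairing by replicate number, the differences in peak presence between replicates 1 and 2 had correlations of -0.0095 to 0.022 over 10 pairs of stages. They were taken over all elements of the genome, of which 37.9% had a peak in 1 library only. Such elements lower the correlations, so this check could miss pairing. With the replicate block, calls in at least 1 pair of libraries numbered 41 of 112 gained (36.6%, genome 40.8%) and 25 lost (22.3%, genome 28.5%), because 1 library against 1 then suffices. With the block 0 member genes passed the adjusted threshold. A rule of 50% cover of the narrower interval changes nothing by construction. With cover of 50% of the element, chosen after seeing the data, 17 were gained (15.2%, genome 15.1%) and 11 lost (9.82%, genome 10.5%). These were not all the same elements, since 25 of the 28 switching elements kept their call and others were newly called. The lists hold no value where no peak was called, so absence is not a measured zero.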
